A study of Arabidopsis thaliana with 12 samples.

Results

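The expression of all genes was compared between atdamt1 and wild-type seedlings of Arabidopsis thaliana after heat. The comparison rests on the 6 heat libraries among the 12 libraries of the series, which were chosen by their labels, 3 of each genotype. Both heat groups were Col-0 seedlings of 10 days that had been heated for 2.5 h, and by their labels they differed in genotype alone (wild type or atdamt1). The other 6 libraries were controls of the same 2 genotypes, labelled 0 h, and served here to estimate the spread and to show each gene without heat. The heat temperature, the kind of atdamt1 allele, the number of mutant lines and the number of seedlings pooled in a library were not stated in the sources used here. The labels do not name separate cultures for the replicates, and the p-values therefore rest on library-to-library spread that could in part be technical. Polyadenylated RNA was taken from whole seedlings, and in such bulk RNA fewer cells of a type and less RNA per cell cannot be told apart. Replicate 1 of heated atdamt1 stood apart from the other 5 atdamt1 libraries in AT3G01345, which was listed at 0 there and was high in the others. The labels do not say whether all atdamt1 libraries came from 1 line, so each value over 3 heated atdamt1 libraries includes a library whose line was not established. Without replicate 1 of heated atdamt1, limma called 1 gene higher and 0 lower. That gene was AT3G01345 itself, whose deviating value was the one left out, so the call gives no separate support.

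METTL4 enzymes belong to the MT-A70 family, whose members transfer a methyl group from S-adenosylmethionine to the amino group of adenine in nucleic acids. The title of the series ties METTL4 and adenine methylation of DNA to survival of heat, and the comparison asks which transcripts differ between the genotypes under heat. In plants, heat releases heat shock factors, which switch on chaperone genes: small heat shock proteins bind unfolding proteins, the HSP100 protein encoded by CLPB1 pulls apart aggregates, and HSP70 and HSP90 proteins refold and hold clients.

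No gene of the 17628 tested passed an adjusted p of 0.05 between heated atdamt1 and heated wild type in limma (0 higher, 0 lower, 0% in each direction; 32833 genes in the table). The smallest adjusted p was 0.0871. The absence of calls depends on the test: on recovered reads edgeR called no gene, but DESeq2 called genes in both directions (values not kept). At an unadjusted p below 0.05, 1326 genes stood apart, 7.52% of those tested, of which 168 (0.953%) were higher and 1158 (6.57%) lower in atdamt1. All differences here and below are atdamt1 minus wild type on the scale log2(RPKM + 1), and none passed the limma threshold in heat. RPKM is the read count scaled to gene length and library size. On this scale the difference of most genes was narrowly bounded. The 95% confidence interval lay within 1 log2 unit on either side of 0 for 16675 genes (94.6%). Its median width to each side was 0.31. The added 1 draws the differences of low genes towards 0, so for those genes the interval does not bound the ratio of RPKM.

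The excess of lower over higher genes moved with the scaling. The median gene was 0.08 lower in atdamt1 with the deposited RPKM values, and 12.7% of the genes at an unadjusted p below 0.05 were higher. After median-of-ratios scaling the median gene stood at 0.00, and 464 genes were higher against 336 lower (58% higher). The 3 libraries of each genotype did not overlap in 307 genes that were higher (1.74%) and 2064 that were lower (11.7%) in atdamt1, and after that scaling in 893 (5.07%) and 941 (5.34%).

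Libraries of 1 genotype differed from each other about as much as libraries of different genotypes. The median absolute log2 difference between a pair of heat libraries was 0.143 to 0.214 within a genotype and 0.138 to 0.242 between genotypes. Along the first principal component of the 6 heat libraries, which held 47.1% of their variance, wild-type replicates 1, 2 and 3 scored -37.0, 13.1 and -11.1 and atdamt1 replicates 1, 2 and 3 scored 10.8, -5.31 and 29.5. The genotypes interleaved: wild-type replicate 1 and atdamt1 replicate 3 formed the ends, and wild-type replicate 2 lay among the atdamt1 libraries.

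**Figure D1:**
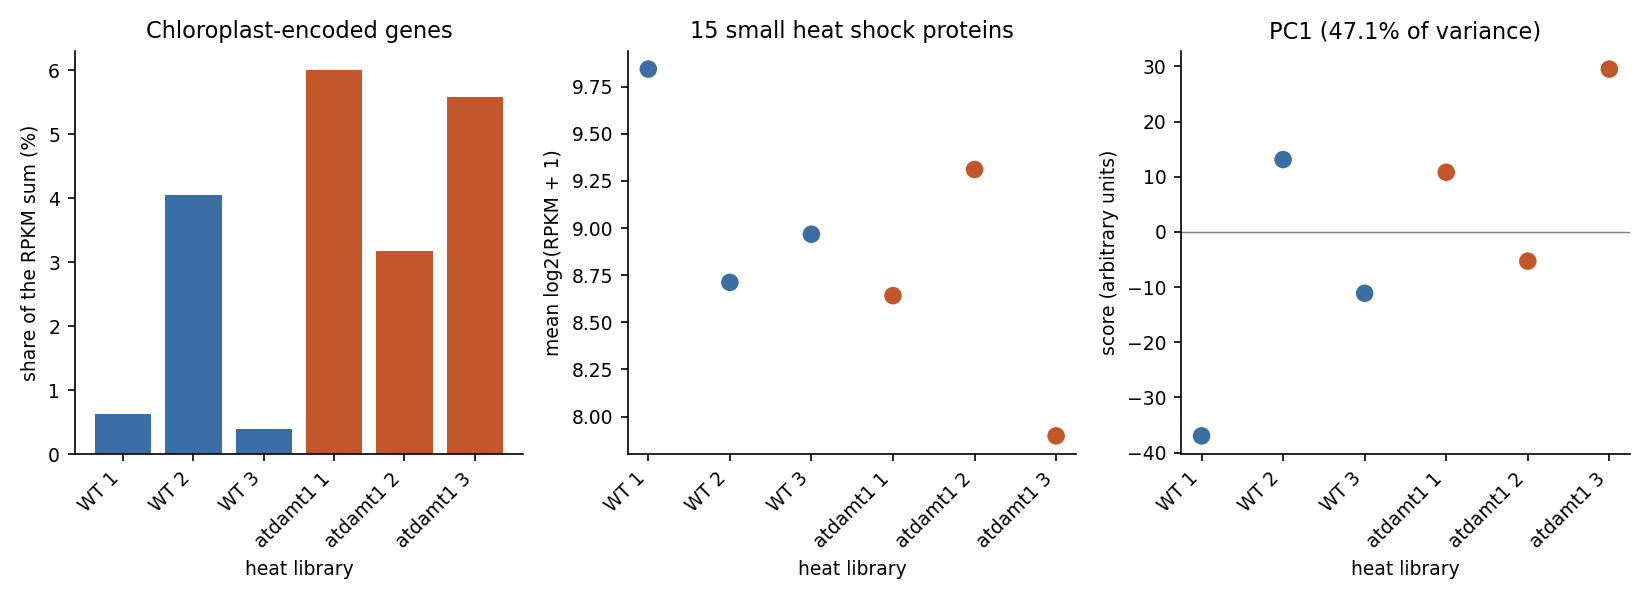
The 6 heat libraries (WT, wild type, blue; atdamt1, orange) by their share of RPKM from chloroplast-encoded genes (left, %), the mean log2(RPKM + 1) of 15 small heat shock protein genes (middle, axis not from 0) and their score on the first principal component (right). Wild-type replicate 2 sits with the atdamt1 libraries at a chloroplast share of 4.05%, and the genotypes overlap in all 3 panels.

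Chloroplast-encoded genes supplied 0.628%, 4.05% and 0.390% of the RPKM sum in wild-type replicates 1, 2 and 3 after heat, and 6.01%, 3.17% and 5.58% in atdamt1 replicates 1, 2 and 3. Wild-type replicates 1 and 3 were low, and wild-type replicate 2 exceeded atdamt1 replicate 2, so the groups overlapped. The means were 1.69% ± 2.05 in wild type and 4.92% ± 1.53 in atdamt1 (SD, n = 3), a difference of 3.23 percentage points with p = 0.2 in a two-sided exact permutation test, which cannot go below 0.1 with 3 libraries against 3. Without wild-type replicate 2 the difference was 4.41 points, the 2 remaining wild-type libraries lay below all 3 of atdamt1, and p = 0.2 was the smallest that the exact two-sided test can give over 10 arrangements. The control libraries ranged from 0.320% to 1.07%. The mitochondrial share differed by -0.0027 points (p = 1, exact permutation test).

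AT1G19340, the METTL4 homolog expected to be affected in atdamt1 and an MT-A70 methyltransferase by annotation (TAIR10.1, chromosome 1, positions 6684467 to 6687116, plus strand), held 1.296, 1.33 and 1.54 RPKM in the heated wild type and 0.475, 0.146 and 0.404 RPKM in heated atdamt1. Every atdamt1 library lay below every wild-type library, at 6 to 21 recovered reads against 55 to 67. The means were 1.39 ± 0.13 and 0.342 ± 0.173 RPKM (SD, n = 3), a ratio of 0.246, and the log2 difference was -0.84 ± 0.14 (SE; adjusted p = 0.208 in limma). Of the alternative settings that gave it a value, the fit with library weights alone called it (-0.86, adjusted p = 0.0428), and the adjusted p ranged from 0.0428 to 0.992. In control the log2 difference was -0.96 ± 0.14, and the difference between heat and control was 0.12 ± 0.20 (adjusted p = 0.979). The transcript was thus low but still listed in all 6 atdamt1 libraries.

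AT1G75945, which encodes a protein without a described function on chromosome 1 (28515245 to 28515916, minus strand), had the smallest p of all genes. It held 3.002, 3.71 and 3.21 RPKM in heated wild type and 12.5, 19.9 and 11.2 RPKM in heated atdamt1. The groups were far apart, at 31 to 40 recovered reads against 115 to 199. The atdamt1 mean was 4.39 times the wild-type mean, and the log2 difference was 1.81 ± 0.23 (adjusted p = 0.0871). Its adjusted p ranged from 0.0188 to 0.992 over the alternatives, and 4 of 18 called it: a pseudocount of 0.1, median-of-ratios scaling, TMM scaling (trimmed mean of M values) and library weights. In control the gene passed the limma threshold with a log2 difference of 1.84 (adjusted p = 0.0374), as 1 of 2 genes called there (0.0113%). The difference between heat and control was -0.03 ± 0.32 (adjusted p = 0.997).

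GER3, a germin-like protein of the cell wall whose transcript is known to follow the circadian clock, held 43.9, 53.2 and 51.5 RPKM in heated wild type and 99.1, 76.0 and 130.0 RPKM in heated atdamt1. The lowest atdamt1 library exceeded the highest wild-type library, as the rule that chose the gene required. The 3 atdamt1 libraries spread more than the 3 of wild type. The mean was 2.05 times that of wild type (log2 difference 0.99 ± 0.16, adjusted p = 0.208, and 0.0428 with library weights). In control GER3 stood at 1673 to 1935 RPKM in wild type and 2069 to 2203 RPKM in atdamt1, a log2 difference of 0.29 ± 0.16, and the interaction of 0.70 ± 0.23 did not pass (adjusted p = 0.979).

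The other genes with the smallest p among those with a mean of at least 5 RPKM that were higher in atdamt1 without overlap were AT4G33980, AT5G26270 and the chloroplast genes NDHB.1 and RPL16. AT4G33980, whose protein resembles the cold-regulated protein COR27 by annotation, held 10.7, 9.70 and 10.4 RPKM in heated wild type and 15.8, 14.9 and 16.4 RPKM in heated atdamt1. Replicates were tight in both groups, and the log2 difference was 0.56 ± 0.12 (adjusted p = 0.515). AT5G26270, of unknown function, held 14.9, 14.9 and 20.6 RPKM against 34.7, 33.1 and 25.6 RPKM, with every atdamt1 library above every wild-type library (0.85 ± 0.20, adjusted p = 0.654), and 209 of its bases are shared with a long noncoding RNA on the opposite strand. It was also higher in the atdamt1 controls, at 32.2 to 53.4 RPKM against 13.3 to 18.7 RPKM.

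Among genes lower in atdamt1, AT3G15180 had the smallest p of those with a mean of at least 5 RPKM and no overlap. It encodes an armadillo-repeat protein annotated with a domain of a proteasome regulatory subunit, and 48 bases of its locus are shared with PRPS20 on the same strand. It held 8.24, 7.37 and 8.38 RPKM in heated wild type and 4.56, 4.63 and 5.29 RPKM in heated atdamt1. The ratio was 0.604 and the log2 difference -0.63 ± 0.11 (adjusted p = 0.208, and 0.0428 with library weights). Without heat the genotypes overlapped (log2 difference -0.05 ± 0.11).

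AT4G04880, a member of the adenosine and AMP deaminase family, held 7.56, 7.08 and 7.78 RPKM in heated wild type and 4.67, 5.53 and 5.38 RPKM in heated atdamt1. Its log2 difference was -0.45 ± 0.09 in heat (adjusted p = 0.515) and 0.14 ± 0.09 in control (interaction -0.60 ± 0.13, not passing at adjusted p = 0.979). The Arabidopsis enzyme is known to remove the methylated amino group of N6-methyl-AMP, a breakdown product of methylated RNA. AT1G68650, a membrane protein of an uncharacterised family, held 9.48, 8.35 and 10.6 RPKM against 6.34, 6.44 and 5.36 RPKM (log2 difference -0.57 ± 0.12, adjusted p = 0.515).

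KAB1, a beta subunit of potassium channels, held 87.0, 74.2 and 78.7 RPKM in heated wild type and 63.0, 56.9 and 57.4 RPKM in heated atdamt1 (-0.43 ± 0.09, adjusted p = 0.515). CSN3, a subunit of the COP9 signalosome that regulates ubiquitin ligases, held 22.8, 19.5 and 20.6 RPKM against 15.9, 15.5 and 15.698 RPKM (-0.39 ± 0.08, adjusted p = 0.617). STP3, a transporter of sugars with protons, held 6.67, 4.57 and 6.38 RPKM against 3.52, 3.12 and 3.19 RPKM (-0.67 ± 0.15, adjusted p = 0.647). All 3 were chosen among genes separated by genotype in heat, as 11.7% of all genes were in this direction. No alternative called KAB1, CSN3, STP3, AT1G68650 or AT4G04880.

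**Figure D2:**
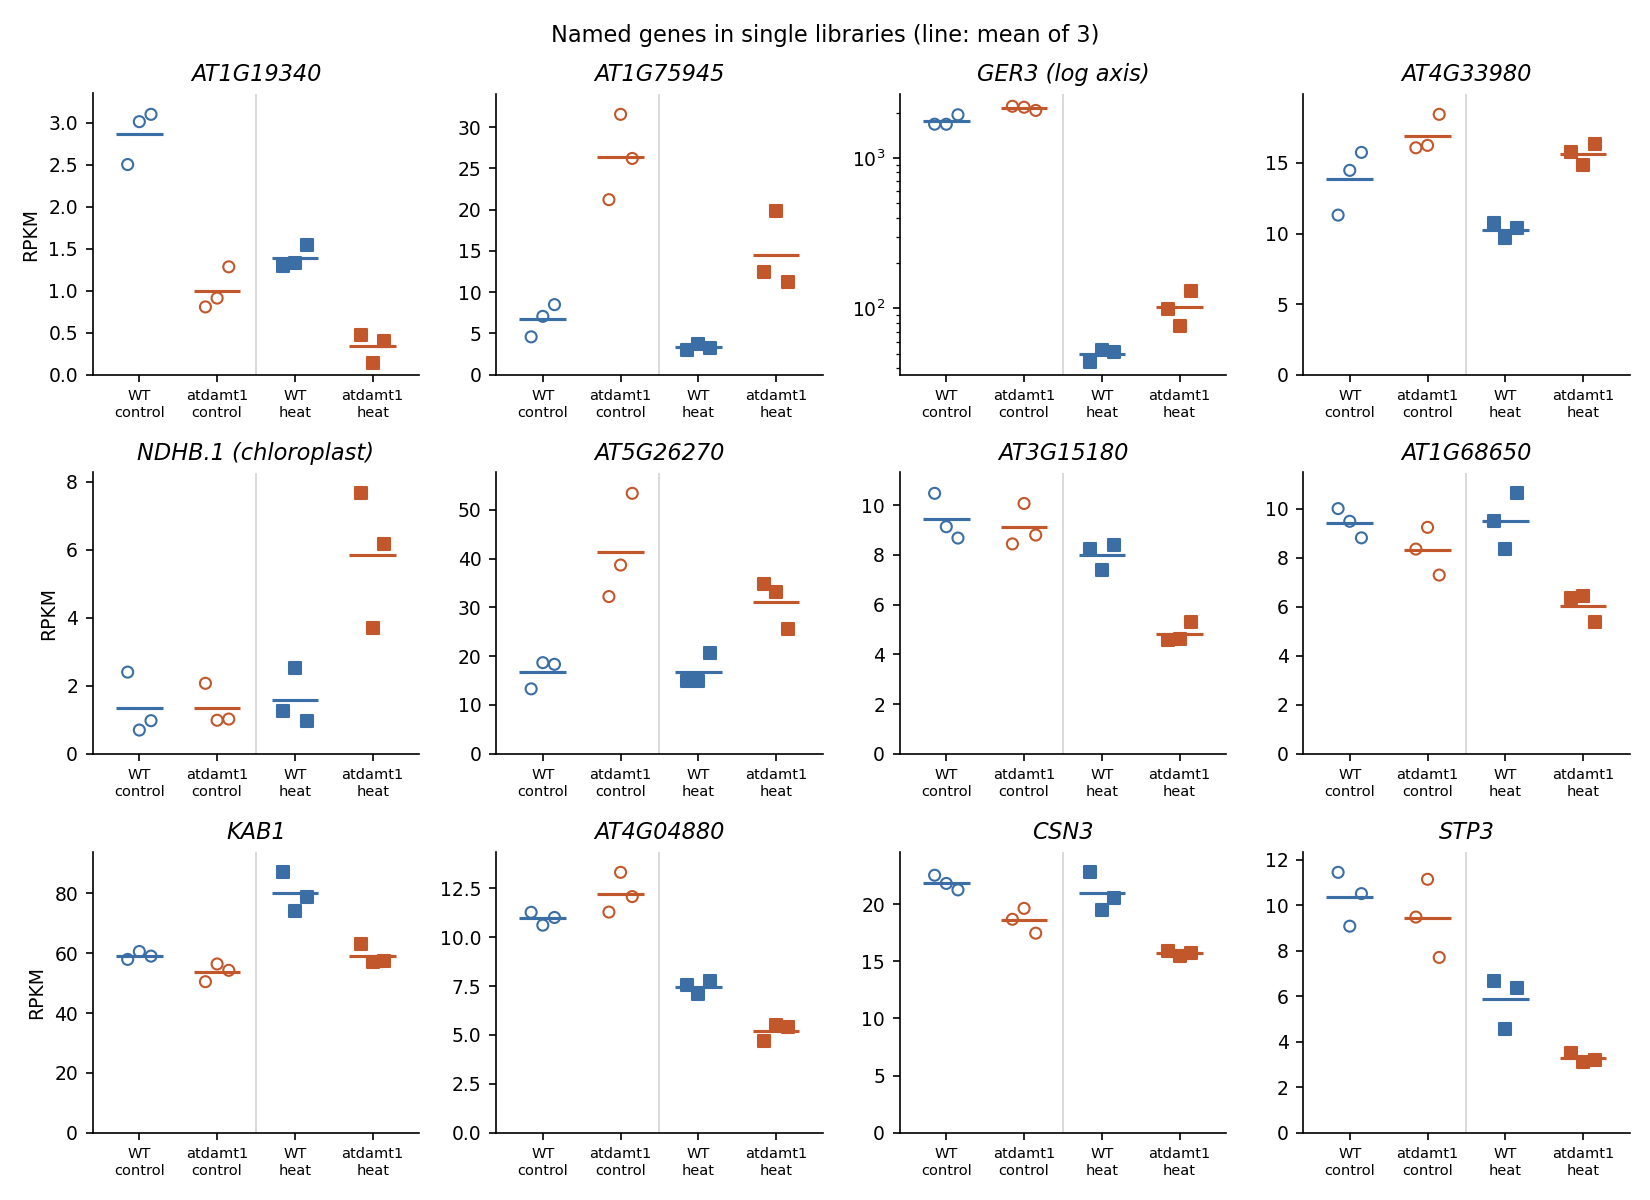
RPKM of 12 named genes in every library (open circles, control; filled squares, heat; blue, wild type; orange, atdamt1; line, mean of 3). The heat groups do not overlap in any panel, which the choice of genes fixed, apart from AT1G19340; GER3 is on a log axis because heat libraries lie at 43.9 to 130.0 RPKM and controls at 1673 to 2203 RPKM.

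The genes below were named after their values were seen, because an alternative setting called them. AT3G05955, a long noncoding RNA on chromosome 3, was nearly unread in heated wild type (1, 0 and 0 recovered reads) and held 35, 16 and 14 reads in heated atdamt1, or 2.76, 1.35 and 1.16 RPKM. A similar step stood in control, at 0.0833 to 0.508 RPKM in wild type and 1.80 to 2.93 RPKM in atdamt1. Its adjusted p in heat was 0.201, against 0.0486 with a pseudocount of 0.1 and 0.0428 with library weights.

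AT3G01345, annotated as a glycoside hydrolase, split the atdamt1 heat libraries. It held 0, 13.4 and 14.7 RPKM in atdamt1 replicates 1, 2 and 3 after heat and 0.0277, 0 and 0.189 RPKM in wild type. Replicate 1 of atdamt1 thus looked like wild type, at 0 recovered reads against 469 and 528 in replicates 2 and 3. In control all 3 atdamt1 libraries were high, at 105, 121 and 101 RPKM against 0.0848 to 0.225 RPKM, and limma called the gene there (adjusted p = 0.0374). With all 6 heat libraries its adjusted p was 0.663, and without atdamt1 replicate 1 it was 1.91e-07. The second value leaves out the library that deviated in this gene, so it was bound to be smaller and gives no separate support. In AT1G19340 the same library, at 0.475 RPKM, was the highest of the 3 heated atdamt1 libraries and below all 3 of wild type, and without it the log2 difference of that gene was -0.91.

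NAD1C, a mitochondrial gene for part of a respiratory complex subunit, was called with library weights: it held 2.11, 2.02 and 2.05 RPKM in heated wild type and 0.404, 0.868 and 0.708 RPKM in heated atdamt1 (-0.89 ± 0.13, adjusted p = 0.201, and 0.0428 with library weights). The control libraries held at most 0.290 RPKM and overlapped between genotypes. RPS15, a chloroplast gene for a ribosomal protein, was also called with library weights (adjusted p = 0.0462 against 0.423), at 0.502, 0.480 and 0 RPKM in heated wild type and 2.09, 1.21 and 2.36 RPKM in heated atdamt1.

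AKINBETA1, a regulatory subunit of the energy-sensing kinase SnRK1, was not called under any setting and was named after its values were seen. It held 60.9, 60.7 and 61.1 RPKM in heated wild type and 74.6, 76.6 and 75.5 RPKM in heated atdamt1. The SD within a genotype was 0.166 and 0.97 RPKM (n = 3). Both lie below the sampling spread expected of its 2232 to 2849 recovered reads, so they do not measure how well replicates repeat. The log2 difference was 0.31 ± 0.08 (adjusted p = 0.654). In control it was -0.16 ± 0.08.

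The interaction of genotype and treatment, which tests whether a heat difference departs from the control difference, called 0 of 17628 genes in limma (0%; 596 at an unadjusted p below 0.05). Counts of separated genes over both treatments rest on the deposited values, where the median gene stood at -0.08 in heat and -0.07 in control. In heat 1.74% of all genes were separated and higher and 11.7% lower, but 5.07% and 5.34% after median-of-ratios scaling. The counts over both treatments were not made after that scaling. Of the 17628 genes, 17 were separated and higher in atdamt1 in both treatments and 216 were lower in both. Another 43 genes were separated in opposite directions. ASN1, an asparagine synthetase known to accumulate when sugar is short, was of the latter kind: it held 96.8, 66.3 and 65.7 RPKM in heated wild type and 114, 101 and 133 RPKM in heated atdamt1, but 0.498 to 1.58 RPKM against 0.279 to 0.452 RPKM in control. Its log2 differences were 0.61 ± 0.21 and -0.41 ± 0.21, and the interaction of 1.02 ± 0.29 did not pass (adjusted p = 0.979).

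**Figure D3:**
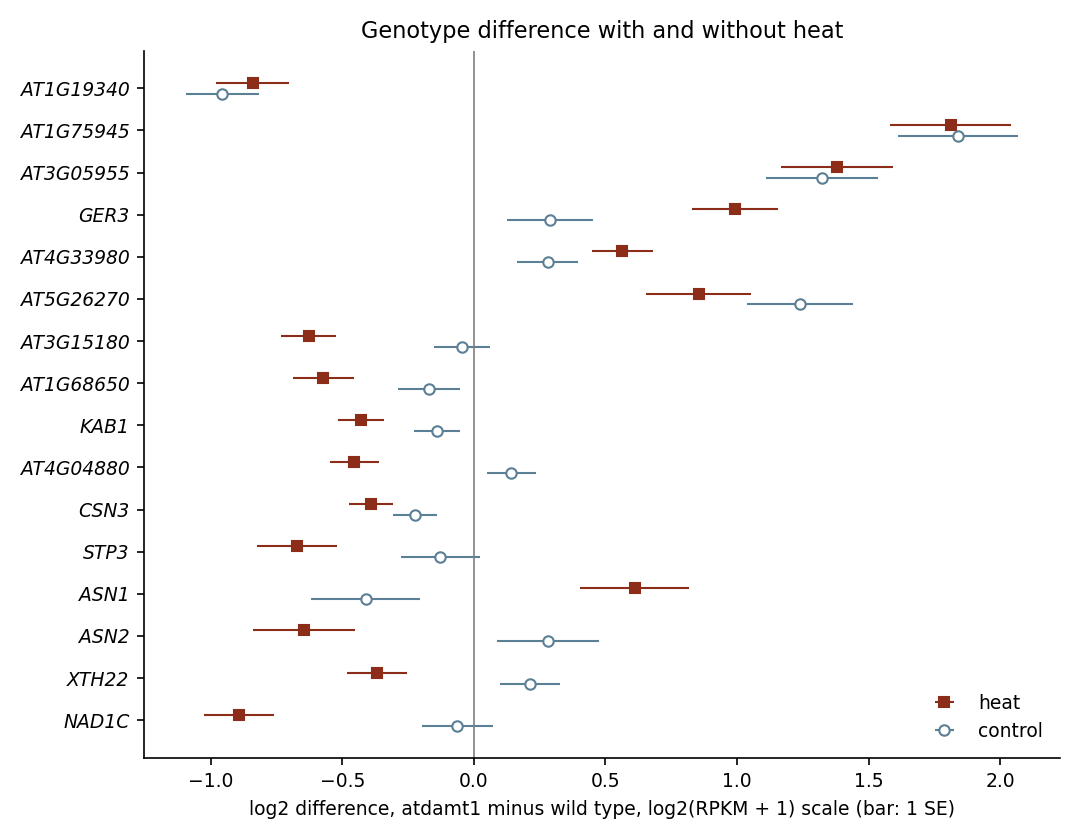
Log2 difference between atdamt1 and wild type in heat (filled squares) and in control (open circles) for 16 genes, each with 1 SE. AT1G19340, AT1G75945 and AT3G05955 lie at nearly the same place in both treatments, whereas ASN1, ASN2, XTH22 and AT4G04880 lie on opposite sides of 0; no interaction passed the threshold.

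Chloroplast-encoded genes made up most of the large positive differences. The libraries were made from oligo-dT purified RNA, so these values count the chloroplast RNA left after that selection. How much of it each library retained was not measured. Of the 56 genes with a log2 difference of at least 1, 45 were chloroplast-encoded. Of 133 such genes in the table, 68 passed the filter on low values, 67 of them lay above 0, 0 were called and 58 had an unadjusted p below 0.05, with adjusted p-values of 0.423 to 0.969. The median difference of these 68 was 1.14 against -0.08 for all genes, and in control it was -0.01. Of the 68, 16 were separated by genotype and higher in atdamt1, beside 1.74% of all genes, and in the other 52 wild-type replicate 2 exceeded the lowest atdamt1 library.

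PSBA, which encodes the D1 protein of photosystem II, held 123, 597 and 77.6 RPKM in wild-type replicates 1, 2 and 3 and 1190, 302 and 1051 RPKM in the atdamt1 replicates. RBCL, the large subunit of Rubisco, held 72.3, 446 and 35.8 RPKM against 787, 266 and 769.9 RPKM. In both genes wild-type replicate 2 was above atdamt1 replicate 2, and the adjusted p was 0.663. RRN16S.1, a ribosomal RNA of the chloroplast and the highest chloroplast entry in every heat library, ranged from 1600 to 19181 RPKM in wild type and from 14756 to 28102 RPKM in atdamt1.

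PSBB, a core antenna protein of photosystem II, held 20.8, 98.5 and 10.8 RPKM against 201, 67.3 and 232 RPKM. The ribosomal protein gene RPL16 held 2.63, 5.34 and 1.71 RPKM against 11.1, 5.75 and 8.94 RPKM, and NDHB.1, a subunit of the chloroplast NADH dehydrogenase-like complex, held 1.26, 2.52 and 0.968 RPKM against 7.66, 3.70 and 6.16 RPKM. These 2 low-level genes were chosen among those without overlap, whereas PSBB, PSBA and RBCL overlapped between genotypes. RRN23S.1, another chloroplast ribosomal RNA, had a log2 difference of 2.15 ± 0.70, and PSAA, a core protein of photosystem I named after its value was seen, the largest of the group at 2.68 ± 0.79. RPL32 was the single member below 0, at -0.08 ± 0.41.

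Leaving out wild-type replicate 2 raised the median of the 68 genes to 1.58, put 63 of them above both remaining wild-type libraries in every atdamt1 library, and gave a lowest adjusted p of 0.0541. With the chloroplast share of each heat library as a covariate the median was 0.02, as that term is built from the same genes. With 1 of 3 wild-type libraries among the high values, an effect of genotype and a difference between libraries cannot be told apart.

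**Figure D4:**
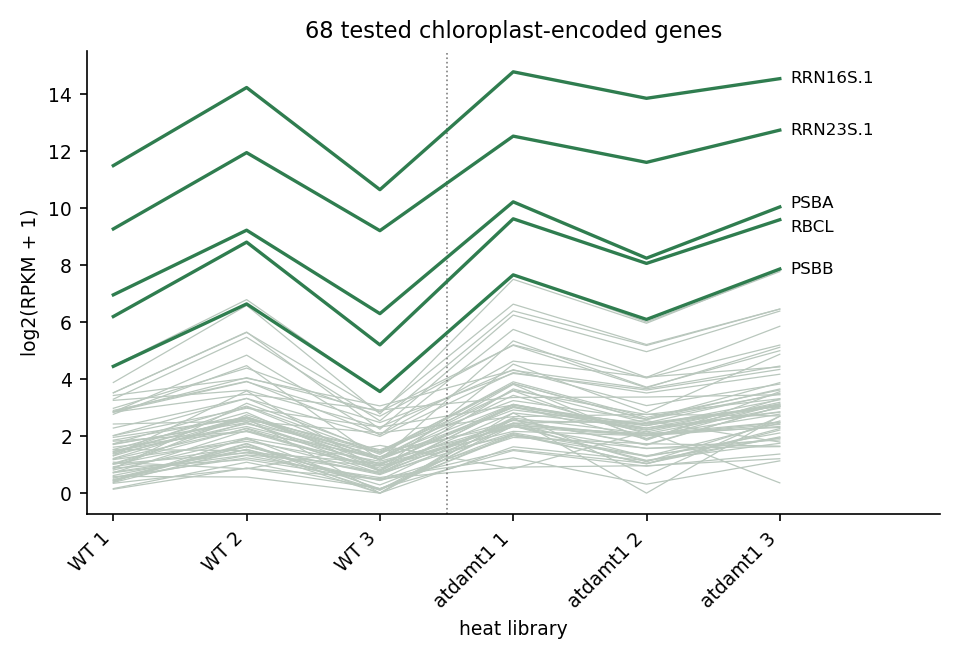
Level of the 68 tested chloroplast-encoded genes in the 6 heat libraries, as log2(RPKM + 1), 1 line a gene; green lines are the 5 genes with the highest mean level and the dotted line divides wild type from atdamt1. The lines move together, low in wild-type replicates 1 and 3 and high in wild-type replicate 2 and the atdamt1 libraries.

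Heat shock genes stood high in all 6 heat libraries, and the genotypes overlapped. All 15 small heat shock protein genes lay below 0 in atdamt1, with a median difference of -0.55 (with the chloroplast share as a covariate 14 of 15 lay above 0). Of the 15, 0 were called and 1 had an unadjusted p below 0.05. None was separated by genotype, whereas 11.7% of all genes were separated and lower. Their mean log2 level was 9.84, 8.71 and 8.97 in wild-type replicates 1, 2 and 3 and 8.64, 9.31 and 7.90 in atdamt1 replicates 1, 2 and 3. Wild-type replicate 1 was the highest library in 14 of the 15 genes and atdamt1 replicate 3 the lowest in 14, whereas atdamt1 replicate 2 stood above wild-type replicates 2 and 3. The median was -0.23 without wild-type replicate 1, -0.18 without atdamt1 replicate 3, -0.80 without wild-type replicate 2 and -0.94 without atdamt1 replicate 2. In control it was -0.04.

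HSP17.6C, a small heat shock protein of the cytosol, held 2848, 1293 and 1542 RPKM in heated wild type and 1200, 2118 and 687 RPKM in heated atdamt1. HSP22.0, with the smallest p of the list, held 599, 268 and 317 RPKM against 239.7, 351 and 127 RPKM (log2 difference -0.75 ± 0.33, adjusted p = 0.663). The groups overlapped in both genes. The spread was wide for HSP21, the small heat shock protein of the chloroplast, which ranged from 49.8 to 209 RPKM in wild type and from 20.3 to 119 RPKM in atdamt1; it was named after its values were seen.

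The 24 HSP70, HSP90 and HSP100 genes and co-chaperones outside the endoplasmic reticulum showed the same order of libraries. All 24 lay below 0 (median -0.42; 20 of 24 above 0 with the chloroplast share as a covariate), and 0 were called. Of the 24, 1 (HSP90-4) was separated by genotype and lower, beside 11.7% of all genes. Wild-type replicate 1 was highest in 23 of them and atdamt1 replicate 3 lowest in 23. CLPB1 held 1247, 538 and 585 RPKM in heated wild type and 503, 899.9 and 324 RPKM in heated atdamt1, and HSP90-1 held 1470, 734 and 772 RPKM against 620.2, 1092 and 431 RPKM. The median was -0.14 without wild-type replicate 1 and -0.17 without atdamt1 replicate 3.

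The 16 tested heat shock factors had a median difference of -0.18, and 0.12 with that covariate. Of the 16, 14 lay below 0, 0 were called and 0 were separated, beside 1.74% of all genes higher and 11.7% lower. HSFA2, a heat-induced factor that sustains chaperone expression, held 1171, 642 and 707 RPKM in heated wild type and 554, 886 and 335 RPKM in heated atdamt1. HSFA7B, another heat-induced factor, held 145, 51.5 and 58.002 RPKM against 38.9, 95.7 and 22.6 RPKM. In both, atdamt1 replicate 2 lay above wild-type replicates 2 and 3, and the groups overlapped. DREB2C, a transcription factor of the heat response, had a log2 difference of -0.49 ± 0.20 at levels of 0.713 to 2.77 RPKM (adjusted p = 0.663).

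Chaperone level and chloroplast share tended to move in opposite directions across the 6 libraries. The 3 libraries with the highest chloroplast share (atdamt1 replicates 1 and 3 and wild-type replicate 2) were the 3 with the lowest mean level of small heat shock proteins and of the other chaperones. With the chloroplast share as a covariate, the median of the small heat shock proteins was 0.26, with 14 of 15 above 0, and that of the other chaperones 0.23, both on the other side of 0. The part of the chloroplast share in the chaperone difference was not tested.

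Genes of 35 lists, with 866 tested members, were then set beside all genes. Limma called 0 members, and the list medians outside the chloroplast genome ranged from -0.55 to 0.13. Scaling by median of ratios shifted the median of all genes from -0.08 to 0.00 and the lists by a similar amount.

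**Figure D5:**
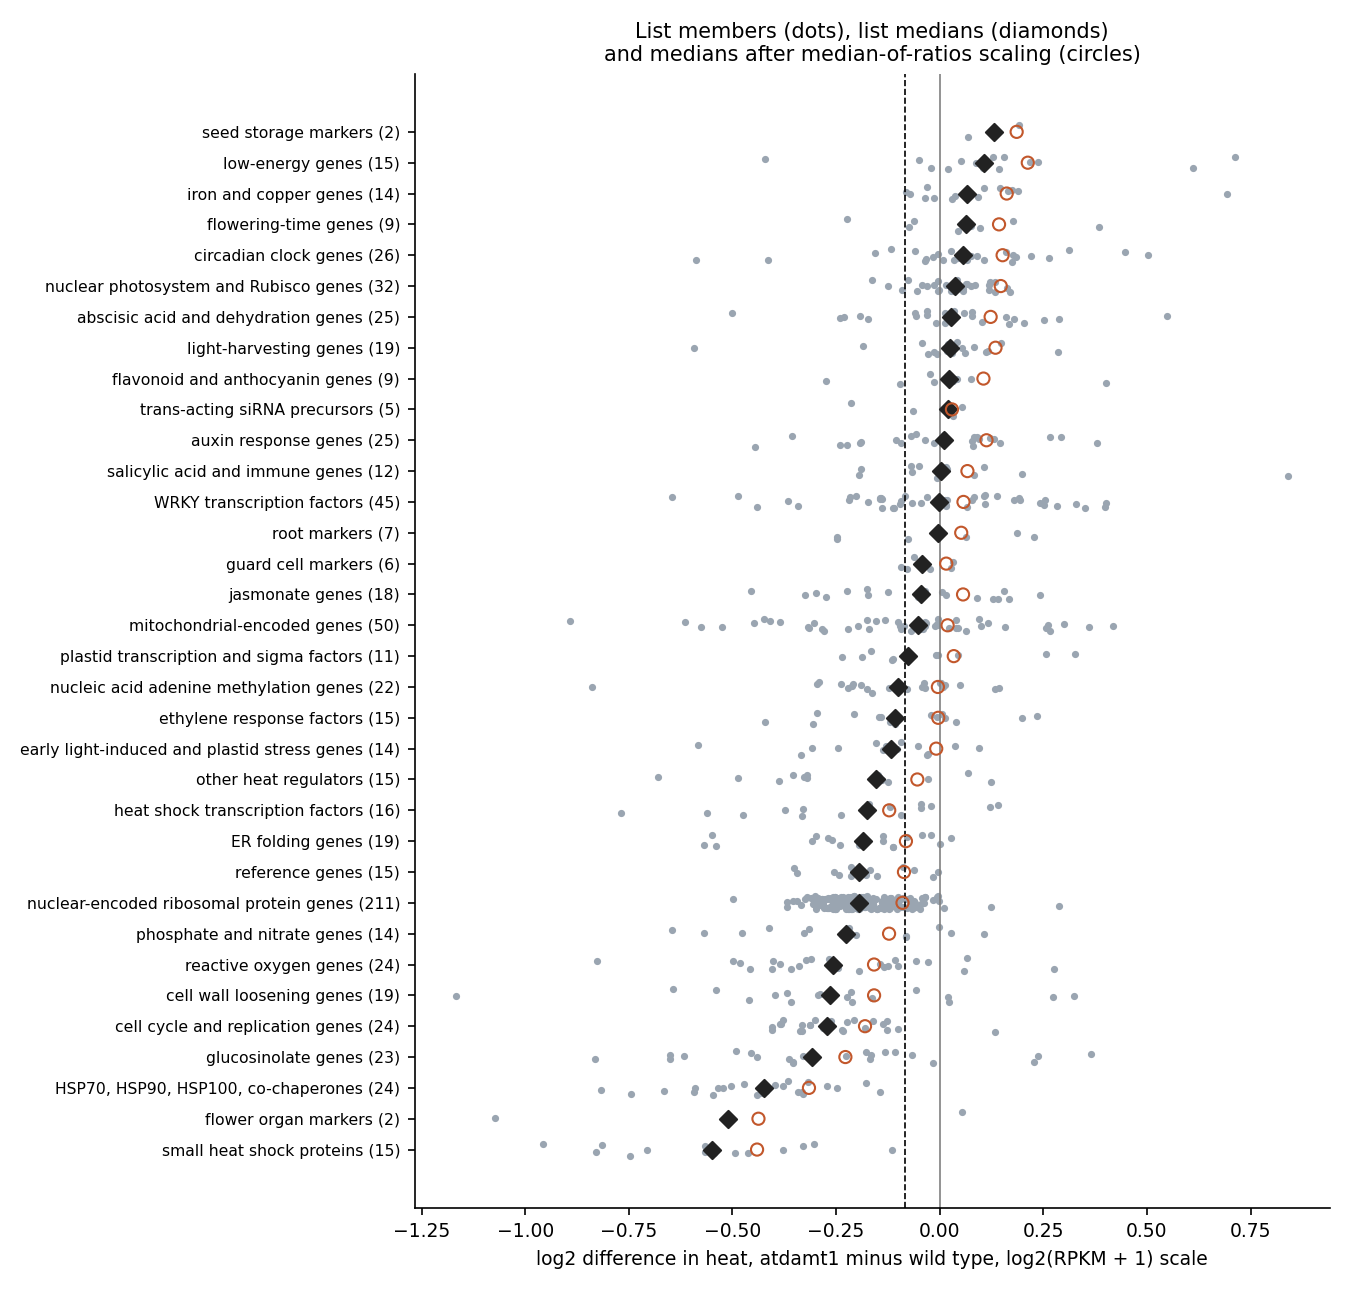
Log2 difference in heat of the tested members of 34 lists (grey dots; number tested in parentheses), their medians (black diamonds) and medians after median-of-ratios scaling (open circles); the chloroplast-encoded list is left out. The dashed line marks the median of all 17628 genes at -0.08, and small heat shock proteins have the lowest median, at -0.55.

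Cell cycle and replication genes had mostly negative differences: 23 of 24 lay below 0 (22 of 24 after median-of-ratios scaling). The list median was -0.27 in heat and -0.18 in control. With the deposited values 8 of the 24 were separated by genotype, all lower, beside 11.7% of all genes. The lowest library was atdamt1 replicate 1 in 14 of the 24. CYCD3-3, a cyclin that drives division in young leaves, held 7.35, 6.001 and 8.02 RPKM in heated wild type and 4.68, 5.69 and 5.22 RPKM in heated atdamt1 (-0.39 ± 0.15, adjusted p = 0.663). The replication factor PCNA held 25.5, 21.8 and 23.3 RPKM against 18.4, 17.799 and 17.3 RPKM, and MCM2 to MCM7, subunits of the replicative helicase, had differences of -0.24 to -0.34, all without overlap; these members were named after their values were seen. With the chloroplast share as a covariate the list median was -0.11, with 16 of 24 below 0.

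Nuclear genes for ribosomal proteins lay below 0 in 208 of 211 cases with a median of -0.20, and in 173 of 211 with a median of -0.09 after median-of-ratios scaling, but above 0 in 161 with the chloroplast share as a covariate (median 0.09). Of these, 23 were separated by genotype, near the share among all genes, and atdamt1 replicate 3 was the lowest library in 159. RPL3A held 481, 428 and 427 RPKM in heated wild type and 367, 302 and 379 RPKM in heated atdamt1. The 15 reference genes, used in this species to normalise other assays, shared the shift, all 15 below 0 with a median of -0.20 (11 of 15 and -0.09 after scaling). GAPC2 held 574, 571 and 621 RPKM against 455, 519 and 414 RPKM.

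Glucosinolate genes, which make and break down the sulfur-rich defence compounds of the cabbage family, were separated by genotype in 10 of 23 cases, all lower in atdamt1, beside 11.7% of all genes, and 20 of 23 lay below 0 (18 of 23 after median-of-ratios scaling). The list median was -0.31 in heat and -0.26 in control. BCAT4, which starts the chain elongation of methionine for aliphatic glucosinolates, held 20.8, 37.8 and 17.5 RPKM in heated wild type and 12.4, 17.0 and 10.55 RPKM in heated atdamt1 (-0.83 ± 0.43; control -0.93). MAM1, the next step of elongation, held 54.3, 72.5 and 47.9 RPKM against 39.6, 40.4 and 31.8 RPKM. Wild-type replicate 2 was the highest library in 13 of the 23 genes, and without it the median was -0.16. UGT74C1, a glucosyltransferase of the pathway that overlaps genes on the opposite strand, had the smallest p (17.41, 19.3 and 17.5 RPKM against 15.04, 13.3 and 14.2 RPKM; adjusted p = 0.663). BCAT4 and MAM1 were named after their values were seen.

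Reactive oxygen genes lay below 0 in 21 of 24 cases (17 of 24 after median-of-ratios scaling), with a median of -0.26 in heat, -0.09 with the chloroplast share as a covariate and -0.01 in control. MSD1, the manganese superoxide dismutase of mitochondria, held 167, 164 and 166 RPKM in heated wild type and 144, 135 and 134 RPKM in heated atdamt1 (-0.27 ± 0.08, adjusted p = 0.663). FSD1, the iron superoxide dismutase, held 1155, 1098 and 1252 RPKM against 871, 943 and 836 RPKM and was named after its values were seen. Neither gene overlapped between genotypes. Of the 24, 3 were separated and lower, near the share among all genes (11.7%).

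Of 14 phosphate and nitrate genes, 12 lay below 0 (median -0.23, and -0.12 after median-of-ratios scaling). ASN2, an asparagine synthetase used in ammonium assimilation, held 180.3, 101 and 146 RPKM in heated wild type and 92.9, 91.4 and 80.7 RPKM in heated atdamt1 (-0.65 ± 0.19, adjusted p = 0.663; control 0.28). Of 15 low-energy genes, 12 lay above 0, with a median of 0.11 in heat, 0.02 without atdamt1 replicate 3, -0.01 with the chloroplast share as a covariate and -0.11 in control. STR15, a gene induced in darkness, held 141, 104 and 97.4 RPKM against 208, 136 and 224 RPKM, with an overlap of 1 library, and was named after its values were seen.

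Of the 22 genes of nucleic acid adenine methylation, writers, readers and erasers of the mark on RNA among them, 0 were called. Their median was -0.10, 0.00 after median-of-ratios scaling and 0.11 with the chloroplast share as a covariate. AT1G19340 alone had an unadjusted p below 0.05. MTA, the catalytic subunit of the mRNA methyltransferase, had a difference of -0.19 ± 0.13 with an interval of -0.48 to 0.10, and the reader ECT2 held 105, 93.7 and 110.0 RPKM in heated wild type and 95.5, 108 and 97.2 RPKM in heated atdamt1. The genotypes overlapped for MTA and for ECT2.

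Folding genes of the endoplasmic reticulum had a median of -0.18 (17 of 19 below 0; -0.08 after median-of-ratios scaling). With the chloroplast share as a covariate it was -0.05, with 11 of 19 below 0. Of the 19, 4 were separated and lower, beside 11.7% of all genes, and SDF2 stood at -0.30 ± 0.10. Nuclear photosystem and Rubisco genes had a median of 0.04 (-0.12 with the chloroplast share as a covariate) and light-harvesting genes of 0.02 (-0.02 after quantile normalization and -0.22 with that covariate). PSAH1 of photosystem I held 626, 670.2 and 645 RPKM in heated wild type and 691, 675 and 745 RPKM in heated atdamt1. The 32 nuclear photosystem and Rubisco genes ranged from -0.16 to 0.17, whereas the chloroplast-encoded genes ranged from -0.08 to 2.68. Abscisic acid genes (0.03), auxin genes (0.01), immune genes (0.00), jasmonate genes (-0.04) and WRKY factors (0.00) had medians near 0. The auxin median was -0.22 with the chloroplast share as a covariate (22 of 25 below 0), -0.16 without atdamt1 replicate 1 and 0.12 without wild-type replicate 2. The other 4 medians also changed sign under at least 1 alternative.

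The remaining lists had medians between -0.26 and 0.07, with 0 genes called. Cell wall loosening genes stood at -0.26, but at -0.05 without atdamt1 replicate 3, the lowest library in 13 of the 19. XTH22, a cell wall enzyme known as touch-induced, held 134, 108 and 119.9 RPKM in heated wild type and 104, 97.3 and 79.4 RPKM in heated atdamt1. The groups did not overlap (-0.37 ± 0.11, adjusted p = 0.663), and in control the difference was 0.21. Heat regulators other than heat shock factors stood at -0.15, and at 0.11 with the chloroplast share as a covariate, where 11 of 15 lay above 0. Medians were -0.12 for early light-induced genes, -0.11 for ethylene response factors, -0.08 for plastid transcription genes and -0.05 for mitochondrial genes, and each changed sign under at least 1 alternative. Iron and copper genes stood at 0.07, but at -0.10 without wild-type replicate 1 and at -0.20 with that covariate. Circadian clock genes stood at 0.06, flowering-time genes at 0.06, and flavonoid genes and trans-acting siRNA precursors each at 0.02, and these medians too changed sign under at least 1 alternative.

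Tissue markers were few among the genes tested. Root markers had a median of 0.00 over 7 tested of 14, and guard cell markers of -0.04 over 6 of 8. Flower organ genes passed the filter in 2 of 8 cases and seed storage genes in 2 of 13. Among them SEP3, a floral regulator, held 11.4, 4.67 and 11.2 RPKM in heated wild type and 2.36, 9.34 and 1.66 RPKM in heated atdamt1, where wild-type replicate 2 and atdamt1 replicate 2 went against their groups.

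Beyond the chloroplast genome, 25 genes had a log2 difference of at least 1 in size, 11 higher and 14 lower. Separated by genotype were 3 of the higher and 5 of the lower, beside 1.74% and 11.7% of all genes. Selection by size itself favours separation. Genes of this group were named by that size after their values were seen. ZAT8, a zinc-finger factor of stress responses, held 20.3, 4.62 and 12.9 RPKM in heated wild type and 2.73, 4.16 and 1.26 RPKM in heated atdamt1 (-1.75 ± 0.42, adjusted p = 0.654). EARLI1, a lipid transfer protein of the cell wall, held 321, 132 and 403 RPKM against 24.7, 221 and 35.6 RPKM (-2.12 ± 0.72, adjusted p = 0.663). ZAT8 was separated, if narrowly, while atdamt1 replicate 2 exceeded wild-type replicate 2 for EARLI1. NIT2, a nitrilase, held 13.1, 26.6 and 21.2 RPKM against 36.0, 36.2 and 52.2 RPKM and was separated (1.03 ± 0.40, adjusted p = 0.663).

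AT1G16022 and AT1G16025, which overlap by 352 bases on opposite strands so that their reads may be split by the counting, were both lower in every atdamt1 heat library. AT1G16022 held 5.15, 4.83 and 6.95 RPKM in heated wild type and 2.76, 1.94 and 1.40 RPKM in heated atdamt1, and AT1G16025 held 4.44, 4.37 and 3.82 RPKM against 2.26, 2.02 and 1.05 RPKM. AT1G16025 was listed at 0 in all 6 control libraries. Its log2 difference was -0.93 ± 0.16 (adjusted p = 0.208).

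Several of the large positive values came from 1 library. LSU1 and SDI1, both known to rise when sulfur is short, held 45.6 and 17.62 RPKM in atdamt1 replicate 1, and at most 5.46 and 0.466 RPKM in the other 5 heat libraries. OSM34, an osmotin-like defence protein, held 54.2 RPKM in atdamt1 replicate 3 against 4.18 to 10.9 RPKM in the other 5, and KTI1, a protease inhibitor, 32.6 against 3.88 to 14.9 RPKM. F6'H1, an enzyme of coumarin synthesis, held 25.8 RPKM in that library and 0.395 to 10.0 RPKM elsewhere. None of these 5 genes was separated by genotype, and their adjusted p-values were 0.663 to 0.774.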

How the data were processed

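Per the labels' protocols, libraries were made from oligo-dT purified RNA with a directional kit. The authors deposited 1 table of RPKM values for 32833 genes in 12 libraries. The submitters' processing notes name TAIR10 as build and the tools STAR and DESeq2, without saying what each was used for. The counting tool and its strand setting were not stated, so overlapping genes on opposite strands may not be told apart. Gene positions are those of TAIR10.1.

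The RPKM values were taken as deposited. Of 24599 genes with an exon length and a value above 0, 24448 came out within 0.1 of a whole read, plus the rounding of the deposited 6 digits, in every library, which gave depths of 21728000 to 23394000 reads for the heat libraries. Heat libraries of 1 genotype differed from each other by 13.5 to 47.8 times the sampling variance.

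Genes with at least 1 RPKM in at least 3 of 12 libraries were fitted on log2(RPKM + 1) with limma 3.58.1 in R 4.3.3 (4 groups, mean-variance trend, 8 residual degrees of freedom), and p-values were adjusted by Benjamini and Hochberg over all 17628 genes at 0.05. A fold change on this scale is smaller than the true ratio for low genes. Figures and shares were computed in Python 3.11.15 with scipy 1.17.1. Named genes were AT1G19340 and the 6 genes a direction with the smallest p among those without overlap and with a mean of at least 5 RPKM. The member of each list with the smallest p was added, since none was called, but not every such member is described here. The comparison, its gene lists and these rules were chosen with earlier results of these data known. Of the list entries, 43 found no gene.

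Alternatives were other pseudocounts, filters and scalings, library weights, the 6 heat libraries alone, the chloroplast share as a covariate, a replicate block and leaving out each heat library. Replicate numbers did not pair the heat libraries: deviations of same-numbered heat libraries correlated at 0.06, -0.43 and 0.13. In control, same-numbered libraries correlated at 0.21, 0.04 and 0.53, and the others at -0.38 to 0.30. The chloroplast share in control also fell with replicate number in both genotypes. It was 1.07%, 0.613% and 0.394% in wild type and 0.979%, 0.497% and 0.320% in atdamt1. Whether the numbers mark a batch was not tested.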

Additional observations from a re-analysis of the deposited data

How the results depend on the processing

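The count of 0 genes higher in atdamt1 became 2 with a pseudocount of 0.1, 1 with median-of-ratios scaling, 1 with TMM scaling and 4 with library weights, and it ranged from 0 to 1 when each heat library was left out (1 without atdamt1 replicate 1). The count of 0 genes lower became 3 with library weights, where the AT1G19340 difference was -0.86, and was 0 under the other settings. With the replicate block, fitted on the heat libraries alone, 0 genes were higher and 0 lower.

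With the chloroplast share as a covariate, differences changed sign for HSP22.0 (0.021), HSFA7B (0.35), CLPB1 (0.35), HSP90-1 (0.22), HSP17.6C (0.30), HSFA2 (0.12), SEP3 (0.33), TAS2 (0.070), SRK2E (0.0068), BHLH101 (-0.27), PSBA (-0.35) and RBCL (-0.16). SRK2E also changed sign with TMM scaling (0.0011), and EM6 ranged from -0.17 to 0.59 over the libraries left out. None of these passed the threshold in either fit, and the cause was not tested.

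The chloroplast share difference was 2.58 to 4.41 points when each library was left out, and 3.71 points without the 10 highest nuclear genes. The planned count tests on recovered reads were run and are not counted among these alternatives, because the table holds RPKM and not counts. In that run edgeR called no gene, whereas DESeq2 called genes in both directions, AT1G19340 among the lower. Their values were not kept and cannot be given here. The absence of calls thus depends on the test. The share of recovered reads from the chloroplast and the promoter motif count were not run, for want of exon lengths and promoter sequences. With 3 libraries a group, a median gene was bounded to 0.31 units of log2(RPKM + 1) on either side. For low genes that is not a bound on the ratio of RPKM.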

Other observations

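Several genes stood out in 1 library. Apart from LSU1 and SDI1 in atdamt1 replicate 1, AT3G54040 held 37.7 RPKM in atdamt1 replicate 3 and 2.43 to 9.53 RPKM in the other 5 heat libraries, the same library in which OSM34, KTI1 and F6'H1 were high. ACS7, an enzyme that makes the ethylene precursor, held 39.97, 6.84 and 22.4 RPKM in heated wild type and 5.09, 22.1 and 4.87 RPKM in heated atdamt1. The order of libraries in ACS7, with wild-type replicate 1 highest and atdamt1 replicate 3 lowest, was the same at both ends as that of the small heat shock proteins. These genes were named after their values were seen.

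CBP60G, a regulator of salicylic acid synthesis, held 5.30, 2.72 and 2.78 RPKM in heated wild type and 4.48, 6.69 and 11.1 RPKM in heated atdamt1, with an overlap of 1 library (0.84 ± 0.32, adjusted p = 0.663). Among flowering-time genes FLC, the repressor of flowering, held 3.06, 2.43 and 2.73 RPKM against 5.01, 3.20 and 3.59 RPKM, without overlap (0.39 log2 difference). LHY, a morning gene of the circadian clock, held 0.718, 1.47 and 1.69 RPKM against 1.78, 1.95 and 2.53 RPKM, also without overlap. FLC and LHY were named after their values were seen. The clock gene with the smallest p, AT3G54500, went the other way (-0.59 ± 0.22, adjusted p = 0.663; control -0.95). For flowering-time genes it was MAF3 (0.18 ± 0.12, adjusted p = 0.725). Of 26 clock genes 1 was separated and higher and 1 lower, and of 9 flowering-time genes 2 were higher. Among all genes 1.74% were separated and higher and 11.7% lower.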
